A study of Mus musculus with 2 samples.

Results

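The heat shock and endoplasmic reticulum (ER) chaperone genes described here were 10 genes chosen by symbol, out of the 55536 annotated genes in the gene tables: Hsp90aa1, Hsp90ab1, Hsp90b1, Hspa8, Hspa5, Hspa1a, Hspa1b, Hspb1, Dnajb1 and Hsph1. The data were total RNA-seq of the hippocampus of male B6CASTF1/J mice, hybrids of the C57BL/6J and CAST/EiJ strains, at 14 days of age. There was 1 group of 2 libraries, labelled biological replicates 2 and 1. Each label listed 3 males with animal numbers of its own and 300 ng of starting RNA, and did not say whether RNA was pooled. With 1 group, the tables give levels, ratios between genes, transcript shares and the difference between the replicates, and no contrast of conditions. Reads from a hybrid were assigned to the mm10 reference, which derives from C57BL/6J, and an effect of CAST/EiJ alleles on any level was not tested.

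Molecular chaperones bind unfolded stretches of other proteins and help them fold, assemble or be degraded. HSP70 proteins take up clients delivered by J-domain proteins and release them when a nucleotide exchange factor swaps ADP for ATP, and HSP90 proteins act later on clients such as kinases and steroid receptors. Constitutive forms of these proteins serve unstressed cells, whereas inducible forms are transcribed by heat shock factor 1 through heat shock elements after heat or protein damage. In the ER, chaperone genes answer to the unfolded protein response through ER stress elements.

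All 10 genes were detected, with a mean TPM (a level scaled by transcript length and by the library's total) of at least 2.78. Their levels fell in 3 tiers. Hspa8, Hsp90ab1 and Hsp90aa1 lay between 406 and 891 TPM. Hsp90b1, Hspa5 and Hsph1 lay between 106 and 121 TPM. Dnajb1, Hspa1a, Hspa1b and Hspb1 lay between 2.78 and 13.9 TPM. The first tier held 84.7% ± 0.239 of the TPM of the 10 genes (SD, n = 2), and the cytosolic heat-inducible genes Hspa1a and Hspa1b together held 0.381% ± 0.121. All 10 genes took 0.351% of gene counts in replicate 2 (95% exact Clopper-Pearson interval 0.349 to 0.353) and 0.333% in replicate 1 (0.331 to 0.336). Their counts ranged from 45 for Hspb1 to 38567 for Hsp90ab1 in replicate 2, and from 48 for Hspb1 to 32342 for Hsp90ab1 in replicate 1. The intervals hold counting error alone and no spread between libraries or animals. They also take each read as independent, although several reads can come from 1 molecule.

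**Figure D1:**
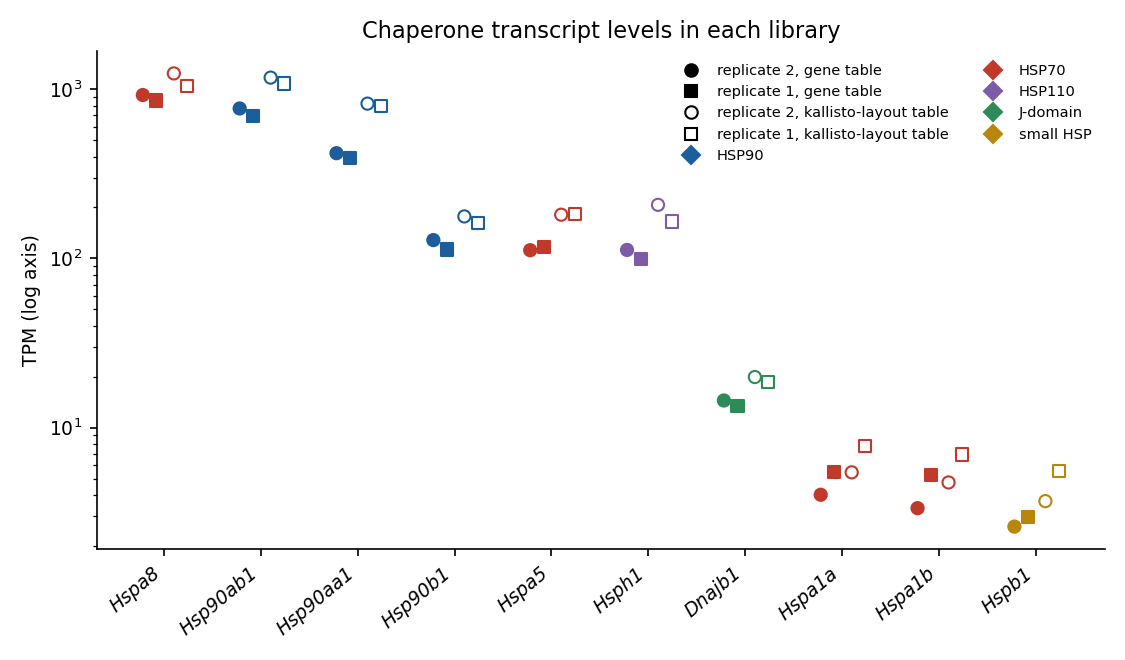
TPM (log axis) of each gene in replicate 2 (circles) and replicate 1 (squares), in the gene table (filled) and summed over transcripts in the kallisto-layout table (open), with colours for the protein family. The 3 tiers of 406 to 891, 106 to 121 and 2.78 to 13.9 mean TPM in the gene table are visible, and every open symbol lies above the filled symbol of the same gene and library.

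Among the HSP90 genes, Hsp90ab1 (chr17:45567775-45573271, minus strand), which encodes the constitutive cytosolic form, had 770 TPM in replicate 2 and 695 TPM in replicate 1. Hsp90aa1 (chr12:110690605-110702728, minus strand), which encodes the cytosolic form more readily induced by stress, had 419 TPM in replicate 2 and 393 TPM in replicate 1. Hsp90ab1 was the higher of the pair in both libraries, with a mean log2 ratio of TPM of 0.85 ± 0.04 (SD, n = 2), or 1.80-fold. That ratio was called a difference by a rule that asked for the same sign in both libraries, a mean above 0.5 and more than 2 SD. Ratios between genes were not tested, because flipping signs exactly over 2 libraries gives no two-sided p under 0.5. In the kallisto-layout table the same ratio was 0.47 ± 0.05 and missed the minimum of 0.5. Hsp90b1 (chr10:86690209-86705509, minus strand), which encodes GRP94, the HSP90 of the ER, had 128 TPM in replicate 2 and 113 TPM in replicate 1. The 3 HSP90 genes summed to 1316 TPM in replicate 2 and 1201 TPM in replicate 1, which was 52.5% ± 0.493 of the TPM of all 10 genes.

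Among the HSP70 genes, Hspa8 (chr9:40800984-40810087, plus strand), which encodes the constitutive HSC70, had 924 TPM in replicate 2 and 857 TPM in replicate 1. By mean TPM it ranked 27 among the 12924 protein-coding genes detected at 1 TPM or more in both libraries, where Hsp90ab1 ranked 40 and Hsp90aa1 ranked 88. Hspa8 lay 0.28 ± 0.03 above Hsp90ab1 on the log2 scale, under the minimum of 0.5, and the kallisto-layout value of 0.02 ± 0.09 changed sign between libraries. The order of these neighbours was therefore not called. Hspa5 (chr2:34771970-34777547, plus strand), which encodes BiP, the HSP70 of the ER, had 112 TPM in replicate 2 and 116 TPM in replicate 1. Hspa8 exceeded Hspa5 by a mean log2 ratio of 2.96 ± 0.12. The ER forms Hsp90b1 and Hspa5 did not differ beyond their spread, with a mean log2 ratio of 0.08 ± 0.17 and opposite signs in the libraries.

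The heat-inducible HSP70 genes Hspa1a (chr17:34969190-34972156, minus strand) and Hspa1b (chr17:34956436-34959238, minus strand) were low. Hspa1a had 4.01 TPM in replicate 2 and 5.48 TPM in replicate 1, from 247 and 317 counts. Hspa1b had 3.34 TPM in replicate 2 and 5.25 TPM in replicate 1, from 194 and 286 counts. Hspa8 was above each of them by a mean log2 ratio of 7.57 ± 0.40 for Hspa1a and 7.73 ± 0.54 for Hspa1b, or 190-fold and 212-fold. Hspa1a and Hspa1b themselves were not called different, with a log2 ratio of Hspa1b to Hspa1a of -0.16 ± 0.14.

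The partners of HSP70 spanned a wide range. Hsph1 (chr5:149614287-149636376, minus strand), which encodes HSP110, a nucleotide exchange factor for HSP70, had 112 TPM in replicate 2 and 99.5 TPM in replicate 1. Dnajb1 (chr8:83608193-83612653, plus strand), which encodes HSP40, a J-domain partner of HSP70, had 14.5 TPM in replicate 2 and 13.4 TPM in replicate 1. Hsph1 lay below Hspa8 with a log2 ratio of -3.07 ± 0.05, and Dnajb1 lay below it with a log2 ratio of -6.00 ± 0.005. Hspb1 (chr5:135887919-135889563, plus strand), which encodes the small heat shock protein called HSP25 in mice, was the lowest of the 10 genes, with 2.60 TPM in replicate 2 and 2.96 TPM in replicate 1. It lay below the related small heat shock gene Cryab by a log2 ratio of -3.44 ± 0.02. In the order of mean TPM, 4 of the 9 neighbouring pairs were called different: Hsp90ab1 from Hsp90aa1, Hsp90aa1 from Hsp90b1 (1.75 ± 0.07), Hsph1 from Dnajb1 (2.93 ± 0.04) and Dnajb1 from Hspa1a (1.57 ± 0.40). The order within Hsp90b1, Hspa5 and Hsph1, and that within Hspa1a, Hspa1b and Hspb1, was not called.

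Several of these genes share long runs of sequence with other genes, so their counts depend on how reads were divided between copies. The main transcript of each gene was here the one with the highest TPM in the kallisto-layout table of replicate 1. That was Hspa8-201 for Hspa8 and Hsph1-201 for Hsph1, and other transcripts of the 10 genes were not searched. Of its 100-base windows, 62.8% in Hspa8, 56.3% in Hspb1, 53.2% in Hsp90aa1, 49.9% in Hspa1b and 48.6% in Hspa1a also occurred, letter for letter, in a transcript of another gene. The share was 1.25% in Hsp90b1, and none of the 100-base windows of Hsp90ab1, Hspa5, Dnajb1 or Hsph1 was shared. With 50-base windows Hsp90ab1 shared 4.49% and Dnajb1 0.407%, and Hspa5 and Hsph1 still shared none. At that length the share was 73.2% in Hspa8 and 65.6% in Hsp90aa1. For Hspa8 the main partner was Gm15459, a processed pseudogene on chromosome 5 (chr5:5781615-5783555), which held 58.5% of the Hspa8 windows. The Gm15459 transcript differed from the Hspa8 coding sequence at 5 of 1941 bases and had no gap against it. A second processed pseudogene, Gm8355 on chromosome 10 (chr10:14745362-14747302), differed at 25 of 1941 bases. Bases 410 to 469 of the Hspa8 coding sequence are shown, counted from 1 at the start codon and taken from the GENCODE M21 transcripts, because they hold a difference of each copy; capitals mark the bases of each pseudogene that differ from Hspa8.
Hspa8: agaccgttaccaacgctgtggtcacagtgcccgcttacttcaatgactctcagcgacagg
Gm15459: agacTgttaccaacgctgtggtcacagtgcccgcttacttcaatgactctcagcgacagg
Gm8355: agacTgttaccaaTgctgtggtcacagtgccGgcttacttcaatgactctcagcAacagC

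Gm15459 was listed at 9169 counts and 232 TPM in replicate 2, and at 7818 counts and 210 TPM in replicate 1. The 7 genes that share 100-base windows with Hspa8 together held counts equal to 29.2% of those of Hspa8 in replicate 2 and 29.1% in replicate 1. In the kallisto-layout table these shares were 29.4% in replicate 2 and 28.9% in replicate 1, close to those of the gene table. The deposited posterior SD, which measures how uncertainly reads were assigned, was 1.41% of the Gm15459 count in replicate 2 and 1.62% in replicate 1. Gm8355 differed more between tables, with 439 and 547 counts in the gene table against 1429 and 1336 in the kallisto-layout table for replicates 2 and 1. Whether the reads listed under these pseudogenes came from Hspa8 transcripts was not tested. Added to Hspa8, the 7 sharing genes would bring it to 1167 TPM in replicate 2 and 1083 TPM in replicate 1, a sum chosen after the values were seen.

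The other sharing genes held few counts. Gm12346, a transcribed processed pseudogene on chromosome 11 that holds 44.0% of the Hsp90aa1 windows, had 396 counts in replicate 2 and 400 in replicate 1. All 3 genes that share windows with Hsp90aa1 held counts equal to 2.12% of its own in replicate 2 and 2.32% in replicate 1. Hsp25-ps1, the processed pseudogene that holds 56.3% of the Hspb1 windows, was listed at 0 in either library, and a 0 allows as many as 3 counts. The posterior SD of the Hspb1 count was 3.74% in replicate 2 and 3.81% in replicate 1.

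Hspa1a and Hspa1b are each other's main copy. Each has 1 exon, and their coding sequences of 1923 and 1926 bases were 99.4% identical in a global alignment, with 8 mismatches and 3 bases in gaps. The longest identical run was 638 bases. Bases 1357 to 1416 are shown for both genes because they hold 2 of the mismatches, which are in capitals.
Hspa1a: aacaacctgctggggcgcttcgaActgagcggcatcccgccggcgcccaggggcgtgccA
Hspa1b: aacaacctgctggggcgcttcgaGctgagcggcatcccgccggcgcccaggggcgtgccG
The posterior SD was 4.54% of the count for Hspa1a and 5.79% for Hspa1b in replicate 2, and 4.43% and 4.90% in replicate 1. It was at most 0.441% for Hspa8, Hsp90aa1, Hsp90b1 and the 4 genes without shared 100-base windows. The sum of the pair is therefore held more firmly than the split between them. That sum was 7.35 TPM in replicate 2 and 10.7 TPM in replicate 1.

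**Figure D2:**
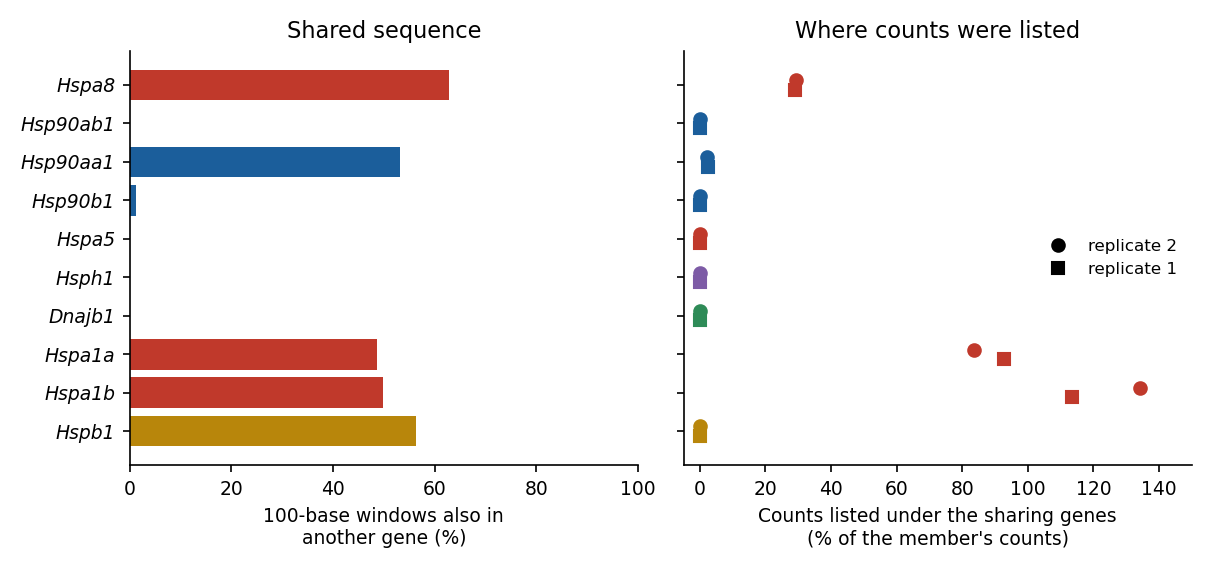
Left, percent of the 100-base windows of each gene's main transcript that also occur in another gene. Right, counts listed under those other genes as a percent of the gene's own counts in replicate 2 (circles) and replicate 1 (squares). Hspa8, Hspb1 and Hsp90aa1 all share over 53% of their windows, yet the sharing genes held about 29% of the counts of Hspa8, about 2% of those of Hsp90aa1 and none of those of Hspb1. Hspa1a and Hspa1b share with each other, and a value over 100% means that the sharing genes held more counts than the gene itself.

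The start regions of 7 of the 10 genes were in the RefSeq promoter table (assembly GRCm38.p6, 9 entries). They were searched on both strands over the 250 bases before the RefSeq start. Hspa8, Hsp90ab1 and Hsp90aa1, the whole first tier by level, had no entry and were not searched. The search covered the 2-unit heat shock element, GAANNTTC or TTCNNGAA, and the ER stress element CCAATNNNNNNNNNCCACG, whose CCAAT overlaps any search for that box alone. The 2-unit heat shock element was found in Hspa1a, Hspa1b, Hspb1 and Hsph1, and occurred in 12.8% of the 32851 promoters of the table. The ER stress element was found in Hspa5 and Hsp90b1, and occurred in 37 of the 32851 promoters, or 0.113%. Dnajb1 had neither. The longer 3-unit heat shock element, TTCNNGAANNTTC or its reverse complement GAANNTTCNNGAA, occurred in 0.466% of the promoters and in none of the 7 genes. A match describes letters in a window and is not evidence of binding. The stretches with the matches are shown 5′ to 3′ on the strand of the gene, with the fixed letters of each match in capitals.
Hspa1a, chr17:34972233-34972280, minus strand: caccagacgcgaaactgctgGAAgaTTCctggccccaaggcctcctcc
Hspa1b, chr17:34959315-34959362, minus strand: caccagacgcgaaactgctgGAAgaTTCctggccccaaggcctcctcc
Hspb1, chr5:135887782-135887849, plus strand: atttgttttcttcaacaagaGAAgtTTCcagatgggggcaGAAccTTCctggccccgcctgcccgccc
Hsph1, chr5:149636351-149636380, minus strand: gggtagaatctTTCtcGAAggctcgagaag
Hspa5, chr2:34772020-34772048, plus strand: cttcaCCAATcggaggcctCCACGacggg
Hsp90b1, chr10:86705513-86705676, minus strand: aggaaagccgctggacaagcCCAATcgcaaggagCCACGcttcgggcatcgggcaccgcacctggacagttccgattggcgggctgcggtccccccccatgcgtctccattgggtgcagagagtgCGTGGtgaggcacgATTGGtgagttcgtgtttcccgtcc

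Hspa1a and Hspa1b carry the element at the same place, positions -104 to -97 from the start, and 247 of the 250 bases before their starts were identical. Hspb1 has a pair of elements, at -117 to -110 and at -97 to -90. Hsp90b1 has an ER stress element on each strand, at -212 to -194 and at -107 to -89, where Hspa5 has 1 at -65 to -47. These positions are counted from RefSeq starts, and GENCODE M21 places some starts further upstream. The Hspa5 stretch shown lies inside the GENCODE gene, which begins at chr2:34771970. The Hsph1 stretch overlaps the GENCODE gene, whose minus-strand start is chr5:149636376. Among the genes searched, those with a heat shock element ranged from Hspb1 at 2.78 mean TPM to Hsph1 at 106 mean TPM. Both genes with an ER stress element lay in the middle tier. No gene of the first tier was searched, so elements cannot be set against level there.

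Transcript shares were given by 2 tables per library, in the layouts of RSEM and of kallisto. The leading transcript, by percent of the gene's TPM in the RSEM-layout table, was the same in both libraries for all 10 genes. In the kallisto-layout table this held for 9 genes, Hsph1 being the exception. Between the tables, 8 genes had the same leader, and Hspa8 and Hsph1 did not. The median over the 10 genes of the share in protein-coding transcripts was 95.0% ± 0.533 in the RSEM layout (SD, n = 2) and 99.4% ± 0.243 in the kallisto layout.

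For Hspa8, the RSEM-layout table gave 45.7% ± 0.0495 of TPM to Hspa8-202 and 29.4% ± 0.226 to Hspa8-201, both protein-coding with 9 exons and 2019 and 2394 bases long. The kallisto-layout table gave 0.195% ± 0.102 to Hspa8-202 and 81.3% ± 6.90 to Hspa8-201. Within each table the libraries agreed far more closely than the tables did with each other. The split between these forms is therefore not settled by these files. The retained-intron transcript Hspa8-204, of 456 bases, held 13.8% of TPM in replicate 2 and 18.7% in replicate 1 in the RSEM layout, but 3.49% ± 0.735 of the gene's counts, since TPM divides by length. In the kallisto layout it held 0.509% ± 0.238 of TPM. The processed transcript Hspa8-203, of 598 bases, was higher in replicate 2 in both tables, at 9.40% against 4.11% of TPM in replicate 1 in the RSEM layout, and 11.1% against 6.16% in the kallisto layout. The small nucleolar RNA genes Snord14c, Snord14d and Snord14e, which lie inside an exon of the retained-intron transcript Hspa8-208, had 0 counts in both libraries.

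Hsph1 was the other gene whose leading transcript differed between the tables. In the RSEM layout, Hsph1-211 held 41.4% ± 6.10 and Hsph1-201 held 20.5% ± 2.19 of TPM, and the retained-intron transcript Hsph1-208, of 751 bases, held 26.6% ± 1.22. In the kallisto layout Hsph1-201 held 25.2% ± 4.10, Hsph1-209 held 22.4% ± 1.67 and Hsph1-208 held 19.2% ± 2.14. Hsph1-209 was listed at 0 in the RSEM layout. Retained-intron transcripts of Hsph1 together held 29.8% ± 0.383 of TPM in the RSEM layout and 22.2% ± 1.04 in the kallisto layout. They held 10.1% ± 0.121 of its counts in the RSEM layout.

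Short transcripts also separated the tables for the cytosolic HSP90 genes. Hsp90aa1-201, a protein-coding form of 11 exons and 2852 bases, led in both tables. It held 67.9% ± 1.61 of TPM in the RSEM layout and 56.3% ± 0.0357 in the kallisto layout. Hsp90aa1-202, also protein-coding with 11 exons and 3281 bases long, held 8.96% ± 0.594 and 0.548% ± 0.1 in those layouts. Retained-intron transcripts of Hsp90aa1 held 18.2% ± 2.41 of TPM in the RSEM layout, where they held 2.39% ± 0.354 of its counts. In the kallisto layout they held 0.58% ± 0.183 of TPM. The kallisto layout gave 42.5% ± 0.119 of TPM to the 481-base protein-coding transcript Hsp90aa1-207, which held 4.36% ± 0.006 of the gene's counts there and 1.45% ± 0.0707 of its TPM in the RSEM layout. The gene summed to 810 ± 16.2 TPM in the kallisto layout and 406 ± 18.0 TPM in the gene table, where its counts differed by 1.03-fold. Hsp90ab1-201 held 94.5% ± 0.933 and 86.8% ± 1.17 of TPM in the RSEM and kallisto layouts. Hspa5-202 held 91.1% ± 2.52 and 79.9% ± 0.190, Hsp90b1-201 held 95.1% ± 1.70 and 99.4% ± 0.304, and Dnajb1-201 held 95.0% ± 2.47 and 93.8% ± 8.76. Hspa1a, Hspa1b and Hspb1 each had 100% of their TPM in 1 transcript.

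**Figure D3:**
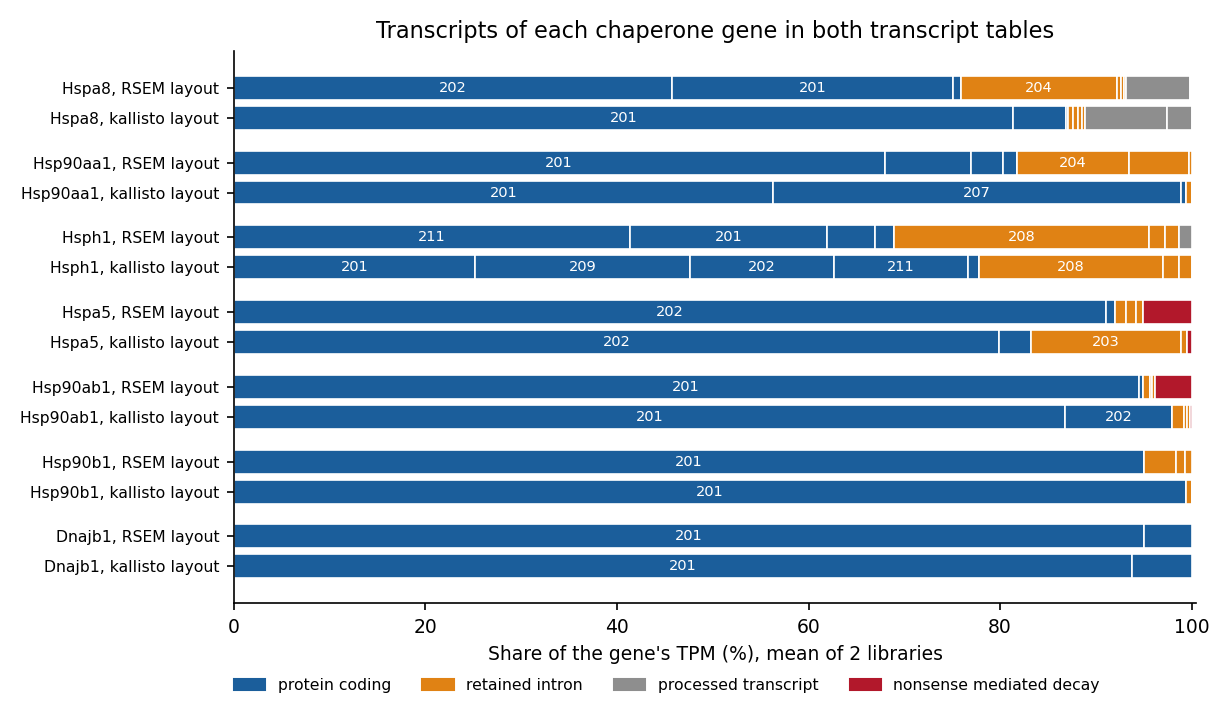
Stacked share of each gene's TPM (percent, mean of 2 libraries) by transcript, coloured by transcript class, with the RSEM-layout table above the kallisto-layout table for each gene. Numbers name transcripts with at least 9% (202 is Hspa8-202 in the Hspa8 bars). Hspa8-202 holds 45.7% in the upper bar and 0.195% in the lower one, Hsp90aa1-207 holds 1.45% and 42.5%, and Hsph1-208 holds 26.6% and 19.2%.

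All 10 genes were higher in TPM in the kallisto-layout table in both libraries, by 1.29-fold for Hspa8 to 2.00-fold for Hsp90aa1. The median over the detected protein-coding genes with a value in both tables was 1.57-fold, so a shift in this direction was shared by most genes. Counts of the 10 genes differed between tables by 0.882-fold for Hspb1 to 1.08-fold for Hsph1, with a median over detected protein-coding genes of 1.07-fold.

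The replicates were then compared. For each of the 18322 genes with a mean count of at least 10, an exact binomial test (two-sided) asked whether its counts divided between the libraries as the TMM library sizes did, TMM being edgeR's scaling by a trimmed mean. P-values were adjusted over these genes by the Benjamini-Hochberg method. The test sets 2 libraries apart beyond counting noise and compares no conditions. Of all genes tested, 22.5% passed at an adjusted p of 0.05, 11.9% being higher and 10.7% lower in replicate 2. That balance depends on the scaling: 2176 genes were higher and 1952 lower with TMM, 2741 and 1646 with median-of-ratios sizes, and 5515 and 1000 with ERCC spike-in sizes. All 10 chaperone genes were tested and 5 passed, 3 being higher and 2 lower in replicate 2, or 6 and 2 with ERCC sizes. The share of genes that passed rose with counts, at 9.57% of genes with a mean count from 10 to under 100, 18.6% from 100 to under 1000, 38.8% from 1000 to under 10000 and 69.9% from 10000. The 10 chaperone genes gave 0 of 1, 2 of 3, 1 of 3 and 2 of 3 in those ranges, so the small differences of the abundant genes sit among many like them.

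Hspa1a and Hspa1b had the largest differences among the 10 genes in the gene table, and both were lower in replicate 2. With kallisto-layout counts they gave -0.52 and -0.55, and Hspb1, which did not pass in either table, gave -0.59 from 34 counts in replicate 2 and 48 in replicate 1. The log2 ratio of replicate 2 to replicate 1 was -0.50 for Hspa1a (95% counting interval -0.75 to -0.26) with an adjusted p of 4.46e-04 in the exact binomial test. It was -0.70 for Hspa1b (-0.97 to -0.44) with an adjusted p of 2.41e-06 in that test. Summed, the pair gave -0.59 (-0.78 to -0.42), which does not depend on how reads were split between them. Among all genes tested with a mean count from 100 to under 1000, the median absolute log2 ratio was 0.129. With a biological coefficient of variation of 0.1 in edgeR's exact test, the adjusted p was 0.681 for Hspa1a and 0.232 for Hspa1b. None of the 10 genes passed that test, where 174 of all 18322 genes tested did.

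The 3 genes higher in replicate 2 differed by little. Hsp90ab1 had a log2 ratio of 0.11 (0.09 to 0.13) with an adjusted p of 3.58e-22 in the exact binomial test. Hsp90b1 had 0.09 (0.04 to 0.14) with an adjusted p of 0.00241, and Hspa8 had 0.05 (0.03 to 0.07) with an adjusted p of 1.25e-04, in the same test. These are differences of 1.04-fold to 1.08-fold, and edgeR's exact test with a coefficient of variation of 0.1 called none of them. Hsp90aa1 (0.02), Dnajb1 (0.06), Hsph1 (-4.02e-04), Hspa5 (-0.06) and Hspb1 (-0.24) did not pass. Of these, Hsp90aa1 passed with median-of-ratios sizes, kallisto-layout counts and ERCC sizes, and Dnajb1 with ERCC sizes. With ERCC spike-in scaling, which shifted the median log2 ratio of all genes to 0.11, Hspa5 gave 0.05 and Hsph1 gave 0.11 with an adjusted p of 2.22e-04 in the exact binomial test. Relative to that shift, Hsph1 lay at the median and Hspa5 below it.

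**Figure D4:**
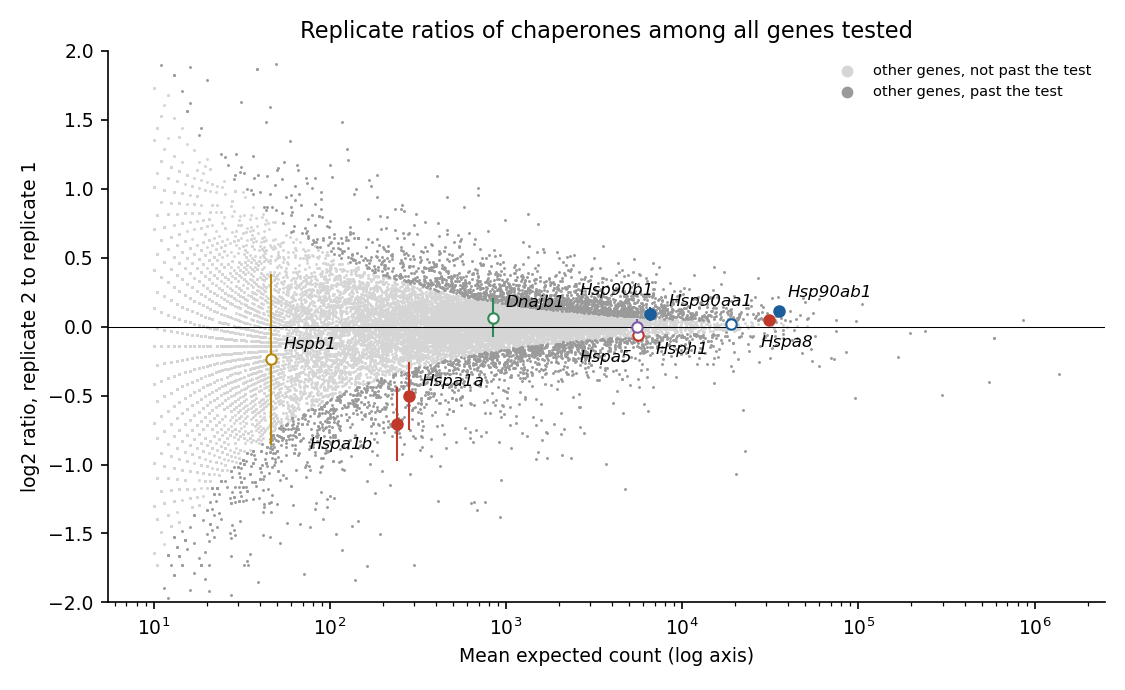
Log2 ratio of replicate 2 to replicate 1 against the mean expected count (log axis) for every gene tested, with 95% counting intervals for the 10 chaperone genes; filled chaperone symbols passed the exact binomial test, and open ones did not. Hspa1a at -0.50 and Hspa1b at -0.70 stand below the other 8 genes, which lie between -0.24 and 0.11. Genes beyond log2 ratios of -2 and 2 are outside the plot.

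Markers of some cell types also differed between the libraries, and in bulk RNA fewer cells of a type and less RNA per cell cannot be told apart. All 6 markers of myelinating oligodendrocytes were lower in replicate 2, with a summed 643 TPM in replicate 2 and 1172 TPM in replicate 1, Mbp and Cnp being the highest. All 4 thalamic markers were lower in replicate 2, with a summed 27.7 TPM against 49.1 TPM in replicate 1, Prkcd and Tcf7l2 being the highest. All 3 red blood cell markers were lower, with a summed 380 TPM in replicate 2 and 506 TPM in replicate 1, Hbb-bs and Hba-a1 being the highest. None of these 13 markers was at 0 in either library. The endothelial markers were mixed, Cldn5 being higher and Ly6c1 and Slco1a4 lower in replicate 2, with a summed 84.1 TPM in replicate 2 and 86.3 TPM in replicate 1. Of 4 choroid plexus and ependyma markers 3 were tested, Ttr and Foxj1 being the highest. The 4 summed to 49.5 TPM in replicate 2 and 90.4 TPM in replicate 1, of which Ttr held 45.8 and 85.9 TPM. Ttr (log2 ratio -0.96) and Otx2 (-2.08, from 8 and 32 counts in replicates 2 and 1) were lower in replicate 2. Foxj1 (0.14) did not pass. Among inhibitory neuron markers, led by Sst (log2 ratio 0.50) and Gad1 (0.08), 2 of 4 were higher in replicate 2, and the rest did not pass. Among microglial markers, led by Csf1r (0.12) and P2ry12 (0.18), 3 of 4 were higher. For scale, 22.5% of all genes tested passed in either direction, and that share rose with counts. Of 5 astrocyte markers, led by Slc1a2 and Aldoc, 2 were higher and 2 lower, and of 5 mural markers, led by Rgs5 and Pdgfrb, 1 was higher. The part of these differences in the lower Hspa1a and Hspa1b of replicate 2 was not tested. The labelled tissue carried its defining markers in both libraries: Camk2a and Nrgn of excitatory neurons at 1283 and 741 mean TPM, and Wfs1 and Prox1 of the CA fields and dentate gyrus at 56.1 and 53.4 mean TPM. Of 5 excitatory neuron markers 3 were higher in replicate 2, with log2 ratios up to 0.35 for Neurod2. Of 6 dentate and CA field markers 4 were higher, with log2 ratios up to 0.51 for C1ql2 and 0.43 for Prox1, and Grik4 (-0.15) was lower. The part of these differences in the chaperone ratios was not tested either.

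Around these 10 genes, 9 lists of 127 other chaperone and stress-response genes were read in the same way. Of these, 121 were tested and 33 passed, 27 being higher and 6 lower in replicate 2, or 27.3% against 22.5% of all genes tested. By list, the share that passed ran from 5.88% for the unfolded protein response to 50% for TRiC and prefoldin. The split was 39 higher and 4 lower with median-of-ratios sizes, and 58 and 2 with ERCC sizes. Their median log2 ratio was 0.05, against -0.003 over all genes tested. The 33 calls were all lost in edgeR's exact test with a coefficient of variation of 0.1, which 174 of all 18322 genes tested passed. Levels in the following sentences are means over both libraries.

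The other HSP70 and nucleotide exchange genes were led by Bag6 at 128 TPM, Hspa12a at 115 TPM and Hspa4 at 78.7 TPM. Bag6 and Hspa4, which encodes a protein of the HSP110 family, passed as higher in replicate 2, as did Hspa9, the HSP70 of mitochondria, and Bag2 (log2 ratio 0.41), for 4 of 16 in all. Hspa1l, which shares windows with Hspa1a and Hspa1b, lay at 0.205 TPM. Bag3, an exchange factor known to be induced with Hspa1a, had 3.69 TPM and a log2 ratio of -0.08. Of 16 J-domain genes, Dnaja1 at 142 TPM, the synaptic Dnajc6 (auxilin) at 136 TPM and Dnajc5 (cysteine string protein) at 122 TPM were highest, against 13.9 TPM for Dnajb1. Dnajc5 (0.12) was higher in replicate 2, and Dnajb2 (-0.20), Dnajb4 (-0.17) and Dnajc6 (-0.07) were lower.

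Of 16 HSP90 co-chaperones, Sgta, St13 and Stub1 were highest, at 75.8, 73.3 and 69.7 TPM. Fkbp4 (log2 ratio 0.39), St13 (0.18), Sgta (0.12) and Stip1 (0.10) were higher in replicate 2. Fkbp5, a target of the glucocorticoid receptor, was lower in replicate 2 with a log2 ratio of -0.68 at 21.4 TPM in replicate 2 and 32.7 TPM in replicate 1. Cdc37l1 (-0.35) was lower as well. Among 9 small heat shock genes, Cryab at 30.3 TPM, Hspb11 at 8.52 TPM and Hspb8 at 4.69 TPM were highest. Cryab alone passed, lower in replicate 2 with a log2 ratio of -0.34. Hspb3, Hspb2, Cryaa, Hspb7 and Hspb9 lay under 1 TPM, and Hspb9 was at 0 counts in either library.

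The cytosolic chaperonin TRiC and its partner prefoldin, which fold actin and tubulin, had 7 of 14 genes higher in replicate 2 and none lower. All 7 had mean counts from 1000 to under 10000, where 38.8% of all genes passed in either direction. Cct2 and Cct4 also lay in that range and did not pass, and the rest of the 14 genes had fewer counts. Pfdn5 at 144 TPM, Cct5 at 102 TPM and Cct7 at 91.7 TPM were highest. The largest log2 ratios among those that passed were 0.20 for Pfdn5, 0.19 for Cct3, 0.17 for Cct5 and 0.15 for Cct6a. Of 9 mitochondrial chaperones, Hspd1 at 78.0 TPM, Hspe1 at 41.6 TPM and Trap1 at 29.7 TPM were highest, and Hspd1 (0.12) and Grpel1 (0.24) were higher in replicate 2.

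In the ER, Calr at 215 TPM and Canx at 190 TPM, the lectin chaperones calreticulin and calnexin, and the prolyl isomerase Ppib at 114 TPM were highest of 21 genes. Calr and Canx thus lay above Hsp90b1 and Hspa5 in mean TPM. In this list 6 genes were higher in replicate 2 and none lower, or 28.6% against 22.5% of all genes tested in either direction. All 6 had mean counts over 1000. Of all genes tested, 38.8% passed from 1000 to under 10000 counts and 69.9% from 10000. The largest log2 ratios were 0.26 for Calr, 0.21 for Pdia6, 0.16 for Pdia3 and 0.13 for P4hb. Of 18 regulators and targets of the unfolded protein response, Sel1l at 63.2 TPM, Wfs1 at 56.1 TPM and Atf4 at 40.8 TPM were highest, and Wfs1 alone passed, with a log2 ratio of 0.11. Wfs1 is also a CA field marker. Trib3 lay at 0.240 TPM. Of 8 heat shock factors and modulators, Hsbp1 at 238 TPM, Hsf1 at 24.8 TPM and Hsf2 at 15.7 TPM were highest. Ier5 (0.38) and Hsbp1 (0.08) were higher in replicate 2, and Hsf1 had a log2 ratio of -0.11 and did not pass. Hsf4, Hsf2bp, Hsf5 and Hsf3 lay under 1 TPM.

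**Figure D5:**
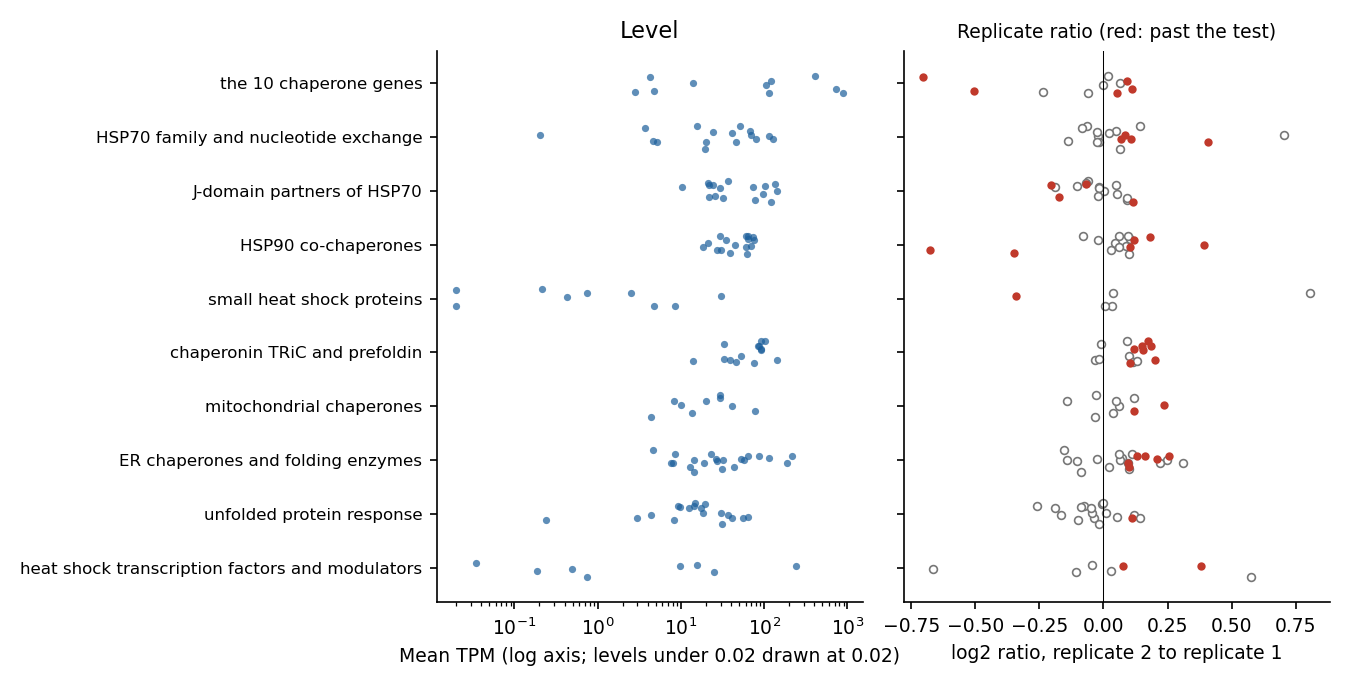
Mean TPM (left, log axis) and log2 ratio of replicate 2 to replicate 1 (right) of the 10 chaperone genes, in the top row, and of the genes of each list. Red points passed the exact binomial test and open points did not, and genes with a mean count under 10 have no point on the right. The TRiC and prefoldin list has 7 red points, all above 0, and Hspa1a, Hspa1b and Fkbp5 are the red points below -0.5.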

How the data were processed

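The authors deposited gene tables with expected counts (estimated reads, not normalised), TPM and a posterior SD of the count, a score in reads. They also deposited 2 transcript tables per library, with expected counts and TPM in the layouts of RSEM and kallisto, and, in the first, the percent of a gene's TPM per transcript, per the file headers. The build was mm10 with GENCODE M21, per the labels; no source used here names the aligner, the quantifiers or their versions. Libraries were ribosome-reduced and stranded, with ERCC spike-ins, per the labels. Replicate 2 held 31755544 gene counts and replicate 1 held 29144848, and 3 counts, the most that a 0 allows, are 0.0945 CPM and 0.103 CPM there. The 97 spike-ins (0.484% and 0.516% of counts) and 26248 numbered entries that name no gene (9.40e-06% and 2.67e-05%) were left out.

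The 10 genes and all lists were chosen with earlier results of these data known. Expected counts were rounded for an exact two-sided binomial test with TMM sizes (edgeR 4.0.16, R 4.3.3). It used a mean count of at least 10, a prior count of 0.5 for log2 ratios and Benjamini-Hochberg adjustment at 0.05. A run on simulated counts held counting (Poisson) noise alone and no spread between libraries. That run could not show how the test behaves where libraries vary. A quasi-likelihood fit needs more than 1 group of 2 libraries. Median-of-ratios sizes came from DESeq2 1.42.0. Other values used pandas 2.3.3, scipy 1.17.1 and numpy 2.4.6 in Python 3.11.15. Named genes were all 10 genes, and per list the 3 highest, those past the test (up to 4 per direction) and those under 1 TPM; of cell-type markers the 2 highest. Bag3, Slco1a4, Neurod2, C1ql2, Grik4, Otx2, Cct2, Cct4, the pseudogenes and the small nucleolar RNA genes fall outside that rule and were named after their values were seen. P-values of the binomial test rest on counting error alone, with 1 library on each side. No spread between libraries or animals enters them.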

Additional observations from a re-analysis of the deposited data

How the results depend on the processing

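Of the 10 chaperone genes 5 passed the replicate test, and 5 to 6 passed under other size factors, total counts, kallisto-layout counts and other count minimums. ERCC scaling gave 8, and edgeR's exact test gave 0 both with a coefficient of variation of 0.1 and with the common dispersion. The common dispersion was estimated from the same 2 libraries taken as 1 group, so their difference counted as noise. It came to a coefficient of variation of 0.1003, so the 2 edgeR settings are nearly 1 test. For the 127 list genes the count of 33 became 60 with ERCC scaling and 0 in both edgeR tests, and for all genes the count of 4128 became 6515 with ERCC scaling and 174 and 172 in the edgeR tests. The same 5 genes were among those called under every setting but edgeR's. Other sizes move every gene by 1 constant, to a median over all genes of 0.0208 with median-of-ratios sizes, 0.0172 with total counts and 0.11 with ERCC scaling. Hsph1, at -4.02e-04, moved with them to 0.0234, 0.0198 and 0.113, and Hspa5 to 0.0525 with ERCC scaling, so these changes of sign are those of the scaling. With kallisto-layout counts Hsph1 gave 0.0300 and Hspb1 gave -0.59, against -0.24 in the gene table; the cause was not tested. Hsp90aa1 passed with median-of-ratios sizes (adjusted p 0.0322), kallisto-layout counts (0.0329) and ERCC scaling (7.28e-17), but not with total counts (0.0566), and Dnajb1 passed with ERCC scaling (0.0359), all in the exact binomial test. The genes' share of counts was 0.342%, 0.333 to 0.351% by single library, and 0.372% without mitochondrially encoded genes. Their median protein-coding share of TPM was 95.0%, 94.6 to 95.4% by single library, and 99.4% in the kallisto layout. Pair calls went from 7 of 10 to between 6 and 8. No paired analysis was possible because there is 1 group. Depth limits Hspb1 most: with 45 and 48 counts in replicates 2 and 1, its log2 ratio of -0.24 has an interval of -0.86 to 0.38.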
